A study of Mus musculus with 66 samples.

Results

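Potassium channel subunit genes were taken as the rows of the 2 deposited tables whose gene symbol starts with Kcn, goes on with a family letter or letters and a number, and ends there or with 1 more letter. The rule found 93 genes of 55421 in each table, all annotated as protein-coding. It leaves out the antisense transcripts Kcnmb4os1, Kcnmb4os2, Kcnd3os, Kcnab3os and Kcnq1ot1, and Kcnrg. Enough reads for a test were found for 84 of the 93 in both tables. The 9 that did not were Kcna7, Kcna10, Kcne1, Kcnj1, Kcnk7, Kcnk15, Kcnk16, Kcnk18 and Kcnmb3.

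The data are 66 poly(A) RNA libraries of hippocampus from C57BL/6 mice that had been injected with brain extract, either Alzheimer's disease extract (AD) or control extract (Ctrl). No group was left without an injection. One cohort is labelled 3 months old and the other 12 months old, and tissue was collected 1, 3 or 5 months post injection (mpi). For 3-month mice there were 5 Ctrl and 6 AD libraries at the first time, 5 of each at the second, and 5 Ctrl and 3 AD at the third. For 12-month mice there were 5 Ctrl and 6 AD, then 6 of each, then 7 of each. The labels do not give the animals' sex, the site of injection, or whether the age is that at injection or at collection. They do not state that each library is a separate animal either, and the spread on which p-values rest here may be technical. Each library held 42462638 to 65907005 reads. All 9 markers of hippocampal pyramidal and granule neurons were above 0 in every library, as were all 8 markers of the bordering thalamus and habenula. Xist and Y-linked transcripts differed between libraries of the same group. The calls over time and between cohorts below are from fits without a term for sex. The question the design poses is how the hippocampal transcriptome differed with the AD extract, over the months after injection, and between ages.

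Potassium channels let potassium ions leave or enter the cell and so set the resting potential, shape the action potential and limit repetitive firing. Voltage-gated pores (Kcna, Kcnb, Kcnc, Kcnd, Kcnq, Kcnh) open on depolarisation, and cytoplasmic or single-pass auxiliary subunits (Kcnab, Kcnip, Kcne) and electrically silent subunits (Kcnf, Kcng, Kcns, Kcnv) change how they gate. Calcium- or sodium-activated pores (Kcnma, Kcnn, Kcnt) link firing to ion entry, and Kcnmb genes encode the beta subunits of the large-conductance channel BK. Kcnu1 was placed in the calcium- or sodium-activated class by gene family and is not itself gated by these ions. Inward rectifiers (Kcnj) include the G protein-gated channels of neurons, the ATP-sensitive channels and the potassium-buffering channels of astrocytes, and two-pore-domain channels (Kcnk) carry leak current. By these classes the 93 genes fell into 30 voltage-gated pores, 10 silent subunits, 12 auxiliary subunits, 8 calcium- or sodium-activated pores, 4 BK beta subunits, 15 inward rectifiers and 14 two-pore-domain channels.

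Start-site sequences were available in the RefSeq promoter table (GRCm38.p6, 250 bases before to 50 after a start) for 68 of the 93 genes, with 93 promoters. Of these, 4 sequences are shown for genes on which the results below turn, 3 that differed over time in both extract groups and 1, Kcnj13, that was among the 2 most variable between libraries. Letters are 5′ to 3′ on the gene's strand. Capitals mark GGGCGG, the GC box, on either strand in Kcnj4 (chr15:79505192-79505491, minus strand), Kcnh4 (chr11:100759729-100760028, minus strand) and Kcnj3 (chr2:55435720-55436019, plus strand). In Kcnj13 (chr1:87394680-87394979, minus strand) they mark TATAAA, the TATA box.
Kcnj4: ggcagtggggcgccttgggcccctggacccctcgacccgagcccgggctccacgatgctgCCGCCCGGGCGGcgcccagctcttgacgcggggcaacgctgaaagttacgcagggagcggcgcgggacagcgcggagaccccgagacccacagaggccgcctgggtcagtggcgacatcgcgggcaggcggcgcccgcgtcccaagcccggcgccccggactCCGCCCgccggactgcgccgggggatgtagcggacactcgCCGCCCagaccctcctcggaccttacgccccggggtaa
Kcnh4: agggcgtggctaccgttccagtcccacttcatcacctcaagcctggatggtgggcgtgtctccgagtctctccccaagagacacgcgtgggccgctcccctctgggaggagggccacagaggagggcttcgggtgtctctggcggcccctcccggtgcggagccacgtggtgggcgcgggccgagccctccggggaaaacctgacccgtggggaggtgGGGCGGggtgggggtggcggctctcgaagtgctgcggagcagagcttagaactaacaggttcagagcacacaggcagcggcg
Kcnj3: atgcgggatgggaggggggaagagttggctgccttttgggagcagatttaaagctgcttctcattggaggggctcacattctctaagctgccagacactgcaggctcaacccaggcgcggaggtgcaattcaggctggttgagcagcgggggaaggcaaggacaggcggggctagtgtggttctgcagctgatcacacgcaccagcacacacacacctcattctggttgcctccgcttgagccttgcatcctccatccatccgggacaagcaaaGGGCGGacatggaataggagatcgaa
Kcnj13: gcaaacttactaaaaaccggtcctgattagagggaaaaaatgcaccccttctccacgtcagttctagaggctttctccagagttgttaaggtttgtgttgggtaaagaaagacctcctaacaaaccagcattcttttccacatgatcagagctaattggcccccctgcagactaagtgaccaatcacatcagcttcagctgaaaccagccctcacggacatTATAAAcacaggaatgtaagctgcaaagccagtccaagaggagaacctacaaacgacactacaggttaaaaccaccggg
GGGCGG on either strand occurred in a promoter of 43 of the 68 channel genes (63.2%), against 38.2% of the 27025 genes in the table. Counted per promoter, the shares were 48.4% of 93 and 35.7% of 32851. TATAAA on either strand occurred for 5 of the 68 (7.35%), against 15.7% of genes. The short form of the cAMP response element, TGACG, occurred for 17 of the 68 (25%), against 23% of genes, and the full element TGACGTCA for 0 of 68, against 2.03%. Every full element holds the short form. The E-box, CANNTG, reads the same on both strands and occurred for 50 of the 68 (73.5%), against 75% of genes. Median GC content was 58% in the channel genes' promoters and 52.7% over the table. A match of letters is a description of the window, not evidence of binding.

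Some of the genes lie next to each other. In GENCODE vM21 (GRCm38), 10 pairs were within 150 kb. They include Kcna3, Kcna2 and Kcna10 on chromosome 3, with gaps of 63.1 and 68.0 kb, and Kcna5, Kcna1 and Kcna6 on chromosome 6, with gaps of 105.0 and 61.9 kb. Kcnj9 and Kcnj10 were 11.9 kb apart on chromosome 1, Kcnj16 and Kcnj2 38.2 kb apart on chromosome 11, and Kcne2 and Kcne1 47.9 kb apart on chromosome 16. Kcnip1 and Kcnmb1 overlap on opposite strands of chromosome 11. For 38 of the 93 genes an annotated gene overlaps on the other strand, among them Mcrs1 at Kcnh3, Gigyf2 at Kcnj13, Nphp4 at Kcnab2 and Gm36937 at Kcnj9. The strand setting of the counting is not given in the sources used here, so reads of such partners may be included.

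Levels between genes were compared per kilobase of annotated exon (value per kb), as means over the 33 Ctrl libraries of both cohorts. The 2 tables were normalised separately. Voltage-gated pores together made up 33.5% of the summed level of all 93 genes and auxiliary subunits 27.8%. Inward rectifiers made up 19.4%, silent subunits 6.67%, two-pore-domain channels 6.62%, calcium- or sodium-activated pores 4.71% and BK beta subunits 1.35%. The summed level was 295.5 ± 14.8 per kb (SD, n = 33) for the voltage-gated pores and 244.9 ± 10.4 per kb for the auxiliary subunits. The single highest gene was Kcnab2, the cytoplasmic beta subunit of Shaker-type channels, at 111.9 ± 8.47 per kb (SD, n = 33). The next 2 were Kcnip2, a calcium-binding partner of Kcnd channels, at 42.0 ± 4.38, and Kcnj10, the potassium-buffering channel of astrocytes, at 39.4 ± 5.61 per kb. Kcnab2 stood far above the rest, whereas Kcnip2 and Kcnj10 differed by less than their SDs.

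Among voltage-gated pores, Kcnd2, the dendritic A-type channel, was at 27.9 ± 2.10 per kb (SD, n = 33). Kcnq3, which contributes to the muscarine-sensitive M current, was at 19.2 per kb and Kcnq5 at 14.2. The axonal channels Kcna2 and Kcna1 were at 20.7 and 18.8 per kb, the fast-spiking channel Kcnc1 at 15.7, the A-type Kcna4 at 6.67 and the erg channel Kcnh7 at 4.93. Among auxiliary subunits, Kcnip3 was at 28.0 ± 6.58, Kcnab1 at 21.3 ± 1.81 and Kcnip4 at 17.9 per kb. The silent subunit with the highest level was Kcnf1, at 17.6 per kb, 20th in order of all 93.

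Of the inward rectifiers, Kcnj3, the shared subunit of G protein-gated channels, was at 37.0 ± 3.22 per kb (SD, n = 33). Kcnj4, a strong inward rectifier, was at 24.4 ± 4.0 and Kcnj9, another G protein-gated subunit, at 23.1 ± 3.12. These 2 differed by less than their SDs. The G protein-gated Kcnj6 was at 5.60, the ATP-sensitive pores Kcnj11 and Kcnj8 at 8.15 and 1.23, Kcnj16, which pairs with Kcnj10, at 8.72, and Kcnj13 at 18.1 per kb. Kcnk1 led the two-pore-domain channels at 32.3 ± 4.69. Kcnk9 was at 5.68 and Kcnk13, known from microglia, at 2.35. Kcnma1, the pore of BK, was at 18.9 per kb, 16th in order, and its neuronal beta subunit Kcnmb4 at 9.59, 30th in order. Kcnn2, a small-conductance channel, was at 6.17 and the sodium-activated Kcnt1 at 4.21. Without the length correction, values here are in the deposited reads-per-million unit (RPM). The 9 untested genes stayed at or below 0.300 RPM in every library.

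**Figure D1:**
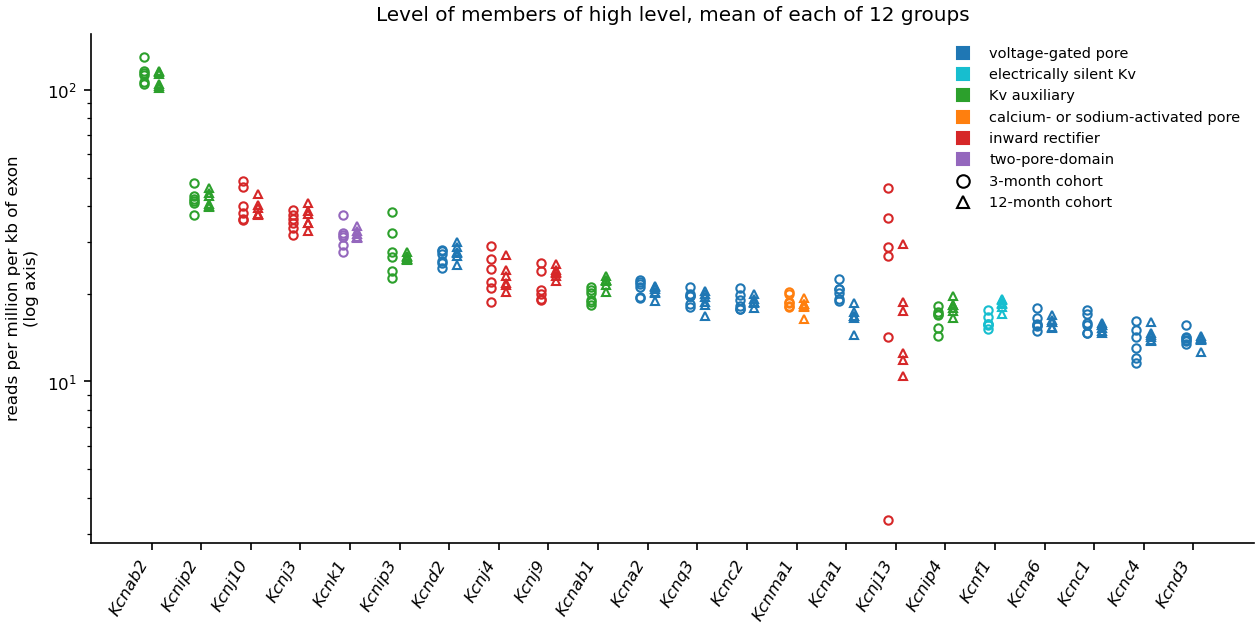
Mean level per kilobase of exon (log axis) of potassium channel genes of high level in each of the 12 groups. Circles are 3-month and triangles 12-month groups, and colour gives the class. Kcnab2 is highest in every group, at a Ctrl mean of 111.9, and most genes' groups lie close together, with Kcnj13 spread widest.

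Across the 12 groups the highest mean was under 1.5 times the lowest for 59 of the 84 tested genes and over 2 times for 12. Apart from Kcne2 and Kcnj13, these 12 had a highest group mean of at most 2.62 RPM (Kcnh4). The means come from 2 tables that were normalised separately, and the same shares over all genes are not given here. The most even was Kcnip1, whose group means ran from 19.2 to 21.6 RPM, a ratio of 1.13. The widest were Kcne2, with a ratio of 20.1, and Kcnj13, with a ratio of 13.8. Both had their lowest group mean in the 3-month AD group at 5 mpi and their highest in the 3-month AD group at 3 mpi.

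Kcnj13 and Kcne2 were also the 2 genes that varied most between libraries of the same group. Kcnj13 encodes an inward rectifier and Kcne2 an auxiliary subunit, both known from the epithelium of the choroid plexus, which lines the ventricle beside the hippocampus. Around its group means, log2(value + 1) had an SD of 1.19 for Kcnj13 and 1.16 for Kcne2 in the 3-month cohort, and of 1.41 and 1.68 in the 12-month cohort. The next widest genes of the 3-month cohort were Kcnk5 at 0.395, Kcne4 at 0.316, Kcnip3 at 0.313, Kcnj2 and Kcne1l at 0.301 each, and Kcnj12 at 0.285. In the 12-month cohort they were Kcnk5 at 0.350, Kcnj5 at 0.315, Kcne4 at 0.313, Kcng3 at 0.304, Kcnh4 at 0.301 and Kcnj14 at 0.280. The median channel gene had an SD of 0.167 in the 3-month and 0.157 in the 12-month cohort, against 0.125 and 0.146 over all genes tested.

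The libraries high in these 2 genes were those high in Ttr, the transthyretin gene that dominates choroid plexus RNA. In the 20 libraries lowest in Ttr (at most 353.2 RPM, 5 of the 3-month and 15 of the 12-month cohort), Kcnj13 ran from 1.15 to 7.67 RPM. In the other 46 it ran from 5.70 to 81.0. Kcne2 ran from 0.158 to 4.66 in those 20 and from 3.27 to 55.2 in the other 46. Of the 20 libraries lowest in Ttr, 19 were among the 20 lowest for Kcnj13 and 19 among the 20 lowest for Kcne2. All 10 choroid plexus markers were above 0 in every library, and their sum ran from 270 to 14381 RPM. In bulk tissue, fewer cells of a type and less RNA per cell cannot be told apart.

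**Figure D2:**
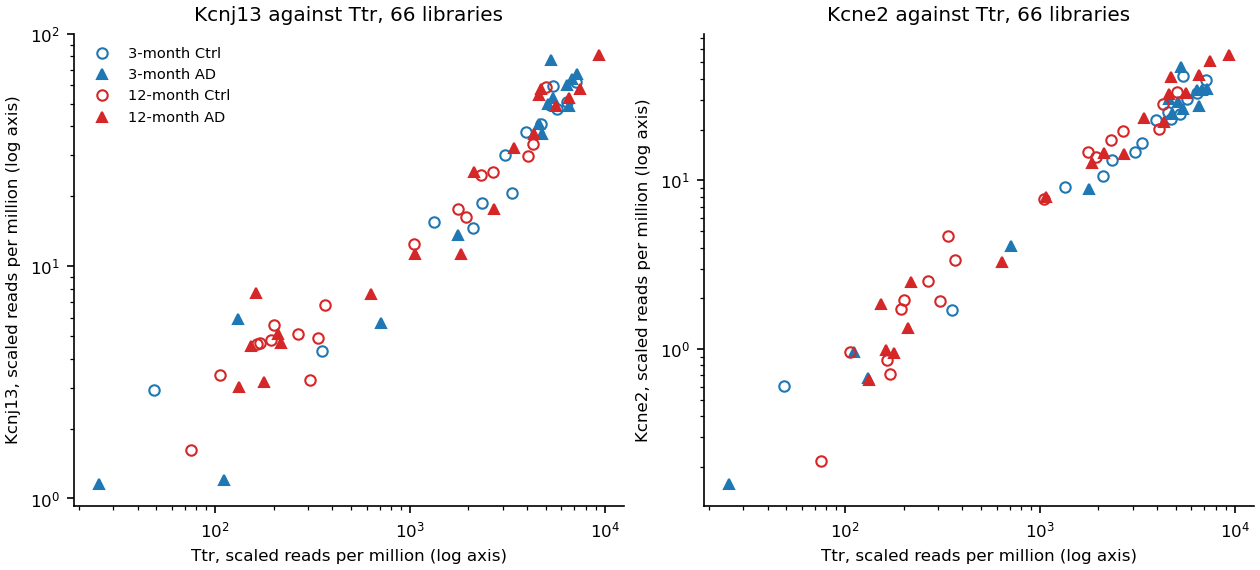
Kcnj13 and Kcne2 against Ttr in the 66 libraries, in RPM on log axes. Both genes are low in the libraries low in Ttr and high where Ttr is high, and the 2 cohorts fall along the same band.

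No potassium channel gene was called between the AD and Ctrl groups, where called means an adjusted p under 0.05. In the 3-month cohort 0 of 84 genes were called with the times weighted equally, against 0% of all 19976 genes tested, and 0 of 84 at each of 1, 3 and 5 mpi, against 0% each. In the 12-month cohort 0 of 84 were called for the mean of the times, against 0.00996% of 20084 genes. There 0 of 84 were called at 1 mpi (0.00498% of all genes), 0 at 3 mpi (0%) and 0 at 5 mpi (0.0548%). These are limma tests with Benjamini-Hochberg adjustment over all genes. The quasi-likelihood test of edgeR and DESeq2 on the recovered reads also called 0 in each of these 8 comparisons. At an unadjusted p under 0.05, the 3-month cohort had 2 of 84 for the mean of the times (3.95% of all genes), 3 at 1 mpi (5.04%), 7 at 3 mpi (4.56%) and 5 at 5 mpi (4.62%).

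In the 12-month cohort, although no gene was called, more of the log2 differences were below 0 than above. For the mean of the times 23 of 84 had an unadjusted p under 0.05 (15.3% of all genes), and 22 of these were lower (7.09% of all genes). At 1 mpi there were 18 (12.1%), 16 of them lower (5.95%), at 3 mpi 6 (3.96%) and at 5 mpi 5 (8.49%). Of the 84 log2 differences over the times, 63 were below 0, with a median of -0.06 against -0.001 for all genes, of which 50.9% were below 0. In the 3-month cohort 50 of 84 were below 0, with a median of -0.01. By class, 24 of 28 voltage-gated pores, 9 of 10 silent subunits and 8 of 11 auxiliary subunits were below 0 in the 12-month cohort over the times. So were 7 of 10 two-pore-domain channels, 5 of 8 calcium- or sodium-activated pores, 2 of 3 BK beta subunits and 8 of 14 inward rectifiers. The split varied with time, with 63 of 84 below 0 at 1 mpi (51.3% of all genes), 55 at 3 mpi (48.4%) and 48 at 5 mpi (49.9%). At 5 mpi 13 of the 28 voltage-gated pores were below 0 and 15 above, with a median of 0.01, and the silent subunits were split 5 to 5.

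Summed cell type markers at 1 mpi are given beside these values, and none of the markers was called there. From Ctrl to AD in the 12-month cohort the summed markers of neurons in general were at 5744 ± 299.6 and 5262 ± 318 RPM (SD, n = 5 and 6). Those of pyramidal and granule neurons were at 1747 ± 149 and 1584 ± 90.01. The microglia sum was at 491 ± 41.4 and 580 ± 55.0, the myelin sum at 3940 ± 447 and 4845 ± 489 and the choroid plexus sum at 2732 ± 2382 and 6799 ± 3519. At 5 mpi the neuronal sum was at 5876 ± 321 and 5505 ± 418 (n = 7 each). Their part in the channel genes' values was not tested. Fits with the choroid plexus or myelin markers as a covariate called 0 channel genes, as the main fits did, and so cannot address it. No fit had neuron or microglia markers as a covariate.

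The difference in AD effect between the cohorts was called for 0 of 85 genes (0% of 21297 genes). The tools edgeR and DESeq2 also called 0. At an unadjusted p under 0.05 there were 7 (5.52% of all genes), and among the smallest p-values were those of Kcnab2, Kcnc1, Kcnip2 and Kcnk4, each with an adjusted p of 0.866.

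**Figure D3:**
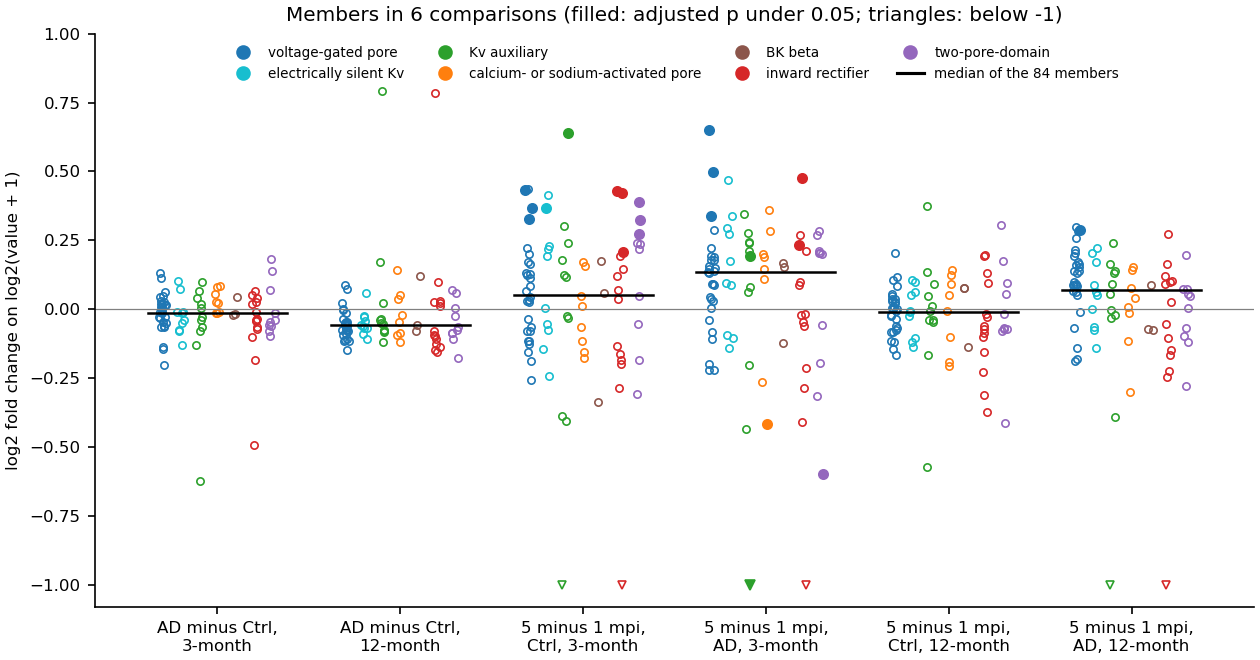
Log2 fold change of each tested potassium channel gene in 6 comparisons, coloured by class. Filled points have an adjusted p under 0.05, triangles lie below the axis limit of -1, and the black line is the median of the 84 genes. There are filled points in the 5 against 1 mpi comparisons, 11 in 3-month Ctrl, 9 in 3-month AD and 1 in 12-month AD, and none in the AD against Ctrl comparisons.

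Genes near to a call are given as values that did not pass. Kcnip4, a partner of Kcnd channels, had 62.7 ± 5.27 RPM in 12-month AD (SD, n = 19) and 68.0 ± 4.33 in Ctrl (n = 18). Its log2 difference was -0.12 (SE 0.033, adjusted p = 0.124), with 15 of 19 AD libraries below the Ctrl mean of their own time. Kcnj16 was at 33.8 ± 4.36 against 37.6 ± 3.13 (log2 difference -0.16, SE 0.047, adjusted p = 0.139). Kcnd2 was at 138.6 ± 10.9 against 148.3 ± 10.3 (adjusted p = 0.152) and Kcnj3 at 184.3 ± 16.5 against 197.2 ± 17.1 (adjusted p = 0.164). The AD and Ctrl ranges of Kcnip4, Kcnj16, Kcnd2 and Kcnj3 overlapped, and the differences were about as large as the SD within a group.

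At single times of the 12-month cohort the nearest gene at 1 mpi was Kcnh3, a slowly activating channel of the Elk family (chromosome 15, 99224861 to 99242817). Its Ctrl libraries were at 59.9, 56.6, 58.0, 65.0 and 59.2 RPM. The AD libraries ran from 46.4 through a median of 49.9 to 56.3. The 2 groups did not overlap, with a log2 difference of -0.23 (SE 0.060, adjusted p = 0.178). Also among the smallest p-values at 1 mpi were those of Kcnab2, Kcnb2 and Kcnj9, with log2 differences of -0.18, -0.25 and -0.18 and adjusted p-values of 0.263 to 0.282. At 3 mpi the nearest were Kcnip4, Kcnv1, Kcnn1, Kcnj4 and Kcnd2, each with an adjusted p of 0.995. At 5 mpi Kcnj16 ran from 26.5 through 30.3 to 36.3 in AD and from 32.7 through 36.6 to 42.6 in Ctrl. All 7 AD libraries lay below the Ctrl mean of 37.2, though the ranges overlap (log2 difference -0.26, SE 0.075, adjusted p = 0.296). Kcnt2, Kcnn2, Kcnj15 and Kcnj2 followed at 5 mpi, with adjusted p-values of 0.504 to 0.542.

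In the 3-month cohort the 2 genes nearest to a call were Kcnj4 and Kcnh4, another channel of the Elk family. Kcnj4 (chromosome 15, 79483714 to 79505241) was at 45.5 ± 7.26 RPM in AD (SD, n = 14) and 54.0 ± 9.83 in Ctrl (n = 15). At 3 mpi its AD libraries were at 44.8, 41.7, 44.0, 48.8 and 46.0 and its Ctrl libraries at 54.0, 52.7, 56.2, 49.0 and 49.9. These 2 sets at 3 mpi did not overlap. Over the 3 times the log2 difference was -0.18 (SE 0.061, adjusted p = 1), and 13 of 14 AD libraries lay below the Ctrl mean of their own time. For Kcnh4 the means were 1.41 ± 0.463 and 1.87 ± 0.473 (log2 difference -0.20, SE 0.068, adjusted p = 1), again with 13 of 14 below. Kcnc4, Kcnn1 and Kcnj3 followed, with log2 differences of -0.14, 0.08 and -0.07. By time, the smallest p-values were those of Kcnc4, Kcnn4, Kcnd3, Kcnj4 and Kcnk1 at 1 mpi (adjusted p = 0.916). At 3 mpi they were those of Kcnh4, Kcna4, Kcnk10, Kcnj14 and Kcnh3 (adjusted p = 0.961), and at 5 mpi those of Kcnk13, Kcne2, Kcnn1, Kcnn2 and Kcnab2 (adjusted p = 1). Without Kcnj13 and Kcne2, the 95% intervals of the 3-month log2 differences over the 3 times stayed within -0.35 and 0.47, and those of the 12-month differences within -0.34 and 0.31.

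In the 3-month cohort some potassium channel genes differed between 1 and 5 mpi in mice given control extract. Each time has its own libraries, and no group was left without an injection. In every comparison over time, time after injection therefore cannot be told apart from the animals' age or the date of collection. Words such as rose, fell and change mean only a higher or lower level in the libraries at 5 mpi than in those at 1 mpi. Of 84 genes 11 (13.1%) were called, against 9.19% of all genes tested, and all 11 were higher at 5 mpi, against 5.13% of all genes called higher and 4.06% lower. The median log2 fold change was 0.05 for the 84 genes and 0.004 for all genes. At an unadjusted p under 0.05 there were 32, against 26.1% of all genes, and 24 of them were higher, against 14% of all genes. The 11 comprised 3 voltage-gated pores (Kcnh3 and Kcnh4 among them), 1 silent subunit (Kcns1), 1 auxiliary subunit (Kcne4), 3 inward rectifiers (Kcnj3, Kcnj4, Kcnj9) and 3 two-pore-domain channels (Kcnk2, Kcnk9, Kcnk10). No calcium- or sodium-activated pore (0 of 8) and no BK beta subunit (0 of 3) was called. With the other tools not every call was higher. Kcnk1 was lower among the 11 genes called by edgeR, and Kcnk1 and Kcnmb1 were lower among the 15 called by DESeq2.

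Of the inward rectifiers, Kcnj9 (chromosome 1, 172320501 to 172329318) was at 75.8, 72.7, 69.1, 96.3 and 94.1 RPM at 1 mpi. At 5 mpi its Ctrl libraries were at 112, 102, 101, 125 and 106. The 2 times did not overlap, and the log2 fold change was 0.43 (SE 0.098, adjusted p = 0.00843). Kcnj4 was at 67.1, 40.5, 41.4, 42.5 and 44.1 at 1 mpi and at 58.4, 60.4, 63.7, 56.1 and 74.0 at 5 mpi. Here 1 library at 1 mpi, replicate 1, was as high as those at 5 mpi, and the other 4 lay below all of them (log2 fold change 0.42, SE 0.101, adjusted p = 0.0112). Kcnj3 (chromosome 2, 55435970 to 55598145) was at 168, 176, 177, 183 and 170 at 1 mpi and at 217, 201, 188, 196 and 211 at 5 mpi. Its times did not overlap either (log2 fold change 0.21, adjusted p = 0.0371).

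Of the two-pore-domain channels, Kcnk2 is a mechanically and lipid-gated leak channel (chromosome 1, 189207930 to 189402273). It was at 33.9, 36.9, 35.4, 41.4 and 48.3 RPM at 1 mpi and at 53.8, 53.2, 52.8, 43.7 and 53.0 at 5 mpi. At 5 mpi 4 of the 5 libraries were above every library at 1 mpi (log2 fold change 0.39, SE 0.088, adjusted p = 0.00833). Its relative Kcnk10 rose from 9.27 ± 1.22 to 11.8 ± 0.739 (SD, n = 5 each, log2 fold change 0.32, adjusted p = 0.0208). The acid-sensitive leak channel Kcnk9 rose from 63.3 ± 6.72 to 76.5 ± 5.48 (log2 fold change 0.27, adjusted p = 0.0474), with no overlap.

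Of the voltage-gated pores, Kcnh3 was at 45.0, 45.9, 55.2, 44.6 and 51.2 RPM at 1 mpi and at 56.6, 66.1, 69.4, 54.3 and 67.5 at 5 mpi. One library at each time crossed the other group (log2 fold change 0.37, SE 0.086, adjusted p = 0.00947). Kcnh4 (chromosome 11, 100740376 to 100759942) was lower in level, at 1.81, 1.18, 1.52, 1.22 and 1.42 against 1.93, 2.51, 2.04, 2.00 and 2.97, with no overlap (log2 fold change 0.43, SE 0.113, adjusted p = 0.018). The silent subunit Kcns1 rose from 6.82 ± 1.19 to 9.03 ± 1.07 (log2 fold change 0.37, adjusted p = 0.0351). The auxiliary subunit Kcne4 rose from 0.990 ± 0.348 to 2.07 ± 0.242, with no overlap (log2 fold change 0.64, SE 0.188, adjusted p = 0.0325). For each of the 11 genes all 5 libraries at 5 mpi lay above the mean at 1 mpi. The genes were picked by their calls in these same libraries, so this adds no support. When each of the 10 libraries was left out in turn, Kcnk2, Kcnj9, Kcnh3 and Kcnj4 lost their call in none. Kcnh4 lost it without replicate 5 at 5 mpi (adjusted p = 0.065), and Kcnk10 without that library or replicate 1 or 3 at 1 mpi (0.053 to 0.068). Kcns1, Kcnj3, Kcne4 and Kcnk9 lost it in 6, 7, 7 and 8 of the 10 fits.

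**Figure D4:**
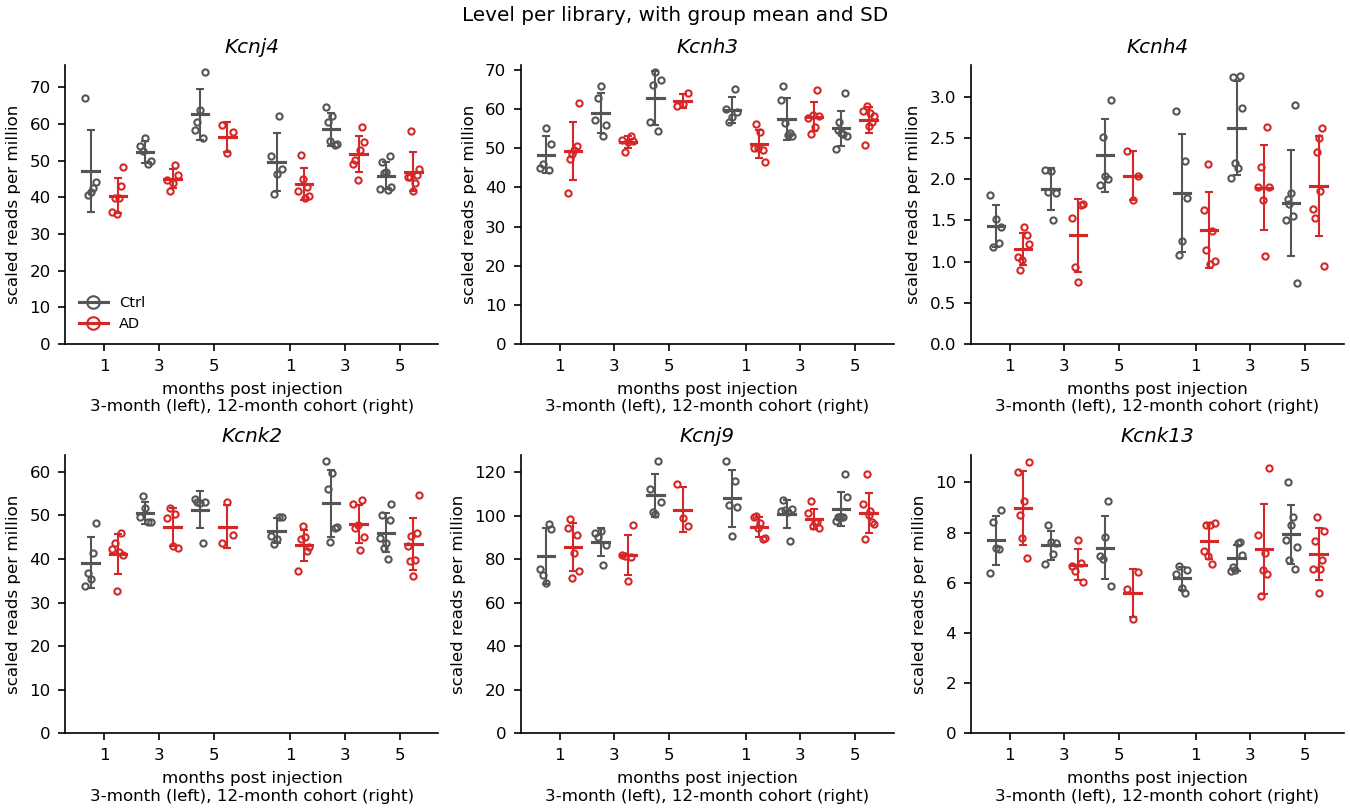
Value in every library (RPM, points) with group mean and SD (bars) for Kcnj4, Kcnh3, Kcnh4, Kcnk2, Kcnj9 and Kcnk13 in the 12 groups. In the 3-month Ctrl groups the first 5 genes are higher at 5 than at 1 mpi, for example 62.6 against 47.1 for Kcnj4, and Kcnk13 falls in the 3-month AD groups from 8.99 to 5.59.

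In mice of the 3-month cohort given AD extract, where 5 mpi holds 3 libraries, 9 of 84 genes (10.7%) were called between 1 and 5 mpi, against 5.69% of all genes. Of these, 6 were higher (1.99% of all genes called higher) and 3 lower (3.7%). The median log2 fold change of the 84 genes was 0.13, against 0.008 for all genes, and 33 had an unadjusted p under 0.05 (21.9% of all genes), 25 of them higher (10.1% of all genes). With another scaling of the reads (relative log expression) 8 were called, 4 higher and 4 lower. When only these 2 groups entered the fit, 0 were called. On the recovered reads edgeR called 10 and DESeq2 14, each with 8 of the 9 among them. Both tools also called Kcnj10 and Kcnj13 lower, and DESeq2 further called Kcna6 and Kcnn3 lower and Kcnab3 and Kcnn2 higher. The Ctrl and AD comparisons share no library. Kcnh3, Kcnh4, Kcnj3 and Kcnj4 were called in both, which is 36.4% of the 11 in Ctrl and 44.4% of the 9 in AD. Over all genes tested, those called in both were 23.0% of the Ctrl and 37.1% of the AD calls. Kcnj3 was not called in AD by edgeR or DESeq2, nor in Ctrl by edgeR, which did not call Kcnk9 there either (adjusted p = 0.0553 and 0.0599). The 16 channel genes called in either had the same sign in both, as had 96.0% of all genes called in either.

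Kcnj4 was at 36.1 to 48.3 RPM in AD at 1 mpi, with a median of 39.8, and at 59.6, 52.0 and 57.7 at 5 mpi. The times did not overlap (log2 fold change 0.48, SE 0.113, adjusted p = 0.015). Kcnh4 rose from 1.16 ± 0.197 (SD, n = 6) to 2.04 ± 0.299 (n = 3; log2 fold change 0.50, adjusted p = 0.0211). Kcnh3 rose by a log2 fold change of 0.34 (adjusted p = 0.0356), Kcnj3 by 0.23 (adjusted p = 0.0483) and Kcnab1, a second beta subunit of Shaker-type channels, by 0.19 (adjusted p = 0.0358). The Shaker-type channel Kcna5 was at 0.793 to 1.07 at 1 mpi and at 1.4, 3.84 and 1.5 at 5 mpi (log2 fold change 0.65, adjusted p = 0.0175). Without the library at 3.84, AD replicate 2, the log2 fold change of Kcna5 was 0.32 (adjusted p = 0.163). Of the genes that rose, Kcnj4 lost its call without replicate 1 or 3 at 5 mpi (adjusted p-values of 0.092 and 0.064), as did Kcnh4 (0.134 and 0.074). Kcnab1, Kcnh3 and Kcnj3 lost theirs in 4, 6 and 6 of the 9 fits that each leave out 1 library of these groups.

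The other 3 genes fell. Kcnk13, a two-pore-domain channel known from microglia (chromosome 12, 99964499 to 100062682), was at 7.0 to 10.8 RPM in AD at 1 mpi, with a median of 8.98. At 5 mpi it was at 5.74, 4.57 and 6.45, with no overlap (log2 fold change -0.60, SE 0.123, adjusted p = 0.00671), and it kept its call with each library left out. The calcium-activated channel Kcnn4, also known from microglia, fell from 0.586 ± 0.201 to 0.183 ± 0.0582 (log2 fold change -0.42, adjusted p = 0.0193), a call lost without any 1 of the 3 libraries at 5 mpi (adjusted p-values of 0.059 to 0.073). Of the 7 microglia markers 3 were lower at 5 mpi as well, Csf1r and Cx3cr1 among them, and the other 4 were not called. Their sum was 429 to 600 at 1 mpi and 374 to 416 at 5 mpi. The part of this marker difference in the values of Kcnk13 and Kcnn4 was not tested. The test of the difference in time change between AD and Ctrl did not pass for Kcnk13 (log2 difference -0.54, SE 0.165, adjusted p = 0.984). It called 0 of the 84 genes (0% of all genes), as did edgeR and DESeq2, and 3 had an unadjusted p under 0.05 (4.07% of all genes).

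Kcne2 was at 30.2, 24.9, 0.955, 34.3, 8.91 and 34.7 RPM in AD at 1 mpi and at 0.158, 0.678 and 4.06 at 5 mpi. One library at 1 mpi was as low as those at 5 mpi (log2 fold change -2.94, SE 0.755, adjusted p = 0.0224). Kcnj13 ran from 1.2 through a median of 39.0 to 67.3 at 1 mpi and was at 1.15, 5.93 and 5.70 at 5 mpi. All 10 choroid plexus markers were called lower in the same comparison, with a median log2 fold change of -2.63. Their sum was 427 to 11319 at 1 mpi and 270 to 1343 at 5 mpi. With the choroid plexus markers as a covariate the log2 fold change of Kcne2 was 0.19 (adjusted p = 0.554). In the same fit 3 channel genes were called in place of 9, and none of the 9 was among them.

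Other markers also moved over time in the 3-month cohort. Inhba, an activity-regulated gene, was at 95.1, 84.1, 53.5 and 38.9 RPM in 4 libraries at 1 mpi (Ctrl replicates 1 and 3, AD replicates 3 and 6). In the other 7 at 1 mpi it was at 10.5 to 16.8. Without these 4 libraries, an alternative added after the data were seen, 5 genes were called in Ctrl. Kcnj4 (log2 fold change 0.54, adjusted p = 0.000562), Kcnh3 (0.40, adjusted p = 0.0118), Kcnh4 (0.53, adjusted p = 0.0282) and Kcns1 (0.46, adjusted p = 0.0323) were among them, and Kcnmb1 was called lower. Kcnk2 was then at 0.28 and Kcnj9 at 0.32 (adjusted p = 0.0546 each), Kcnj3 at 0.20 (adjusted p = 0.0575) and Kcnk9 at 0.17 (adjusted p = 0.296). In AD 20 genes were called without them, all 9 of the full set included. The share of all genes called in the alternative fits is not given here, so their counts have no background beside them. Of the 8 myelin markers 3 were lower at 5 mpi in Ctrl, Mobp and Cldn11 among them, and 3 in AD, Mag and Cldn11 among them. Their sum in Ctrl was 4260 to 5343 at 1 mpi and 3123 to 4928 at 5 mpi, and its part in the channel genes' values was not tested beyond the covariate fit. With the myelin markers as a covariate 14 genes were called in Ctrl, 8 of them among the 11, and Kcnj3, Kcnk9 and Kcns1 lost their calls. In AD 2 were called, 1 of them, Kcnj4, among the 9. With the choroid plexus markers as a covariate 11 were called in Ctrl, 7 of them among the 11, and the same 3 genes were among those that lost theirs.

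In the 12-month cohort the same interval gave almost no calls. In Ctrl 0 of 84 genes were called, against 0.0249% of all genes, and edgeR and DESeq2 called 0 as well. At an unadjusted p under 0.05 there were 4 (6.81% of all genes). The smallest p-values were those of Kcnk6 (log2 fold change -0.41, adjusted p = 0.409), Kcnk13 (0.31, adjusted p = 0.496), Kcnj12 (-0.37, adjusted p = 0.496), Kcne4 (0.38, adjusted p = 0.682) and Kcnd2 (0.10, adjusted p = 0.739). In AD 1 of 84 was called, against 0.762% of all genes, and 24 had an unadjusted p under 0.05 (14% of all genes). Of these 24, 19 were higher at 5 mpi (6.51% of all genes). Of the 84 log2 fold changes in AD 55 were above 0 (50.4% of all genes), with a median of 0.07 against 0.001 for all genes. Kcnq3, a pore of the M current, was at 269, 215, 265, 254, 215 and 263 RPM at 1 mpi. At 5 mpi it ran from 280 through 295 to 338. The 2 times did not overlap (log2 fold change 0.29, SE 0.065, adjusted p = 0.0224), and when only these 2 groups entered the fit the call was lost. It was also lost without replicate 2 or 5 at 1 mpi, or 1 or 5 at 5 mpi (adjusted p-values of 0.052 to 0.079 for Kcnq3). Kcne1l, Kcnb2 and Kcnj10 did not pass, with log2 fold changes of -0.39, 0.26 and -0.22 and adjusted p-values of 0.099 to 0.135. The difference in time change between AD and Ctrl was called for 0 of 84 genes (0.00498% of all genes), and 4 had an unadjusted p under 0.05 (5.83%). The smallest p-values there were those of Kcnh3 (log2 difference 0.28, adjusted p = 0.515) and Kcnk13 (-0.40, adjusted p = 0.717).

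The 2 cohorts were then compared in the Ctrl libraries, with the reads of both tables scaled together. The cohorts are separate tables, so cohort and age cannot be told apart. Of 85 genes tested 16 were called (18.8%), 6 higher and 10 lower at 12 months, against 20.7% of all genes. The share of channel genes was near that background. Of the 28 voltage-gated pores 7 were lower and 0 higher, and of the 10 silent subunits 2 were higher, against 10% of all genes called higher and 10.7% lower. Of the 11 auxiliary subunits 2 were higher and 1 lower, and of the inward rectifiers 2 were higher and 2 lower. With the tables used as deposited 21 were called, 11 higher and 10 lower, and the 16 were among them. Levels below are the deposited values, which were normalised within each table.

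Lower at 12 months were 3 Shaker-type channels. Kcna1, an axonal channel, was at 83.5 ± 11.6 RPM at 12 months (SD, n = 18) and 97.8 ± 13.2 at 3 months (n = 15; log2 fold change -0.24, SE 0.055, adjusted p = 0.000931). Kcna3 was at 3.89 ± 0.654 against 5.07 ± 0.617 (log2 fold change -0.33, adjusted p = 0.00189), with 18 of 18 libraries below the 3-month mean of their own time after injection. Kcna4 was at 29.5 ± 4.38 against 35.5 ± 5.74 (log2 fold change -0.27, adjusted p = 0.00614), with 17 of 18 below. The erg channel Kcnh2 (log2 fold change -0.25, adjusted p = 0.00463), Kcnh5 (-0.23, adjusted p = 0.0228) and Kcnq1 (-0.20, adjusted p = 0.0271) were also lower. The G protein-gated Kcnj6 was lower too (log2 fold change -0.20, adjusted p = 0.0135). The ranges of the 2 cohorts overlapped for all of these genes. The call of Kcnh5 was lost without 12-month replicate 5 at 1 mpi (adjusted p = 0.058), and that of Kcnq1 without 3-month replicate 4 at 1 mpi or 5 at 3 mpi (0.058 and 0.055) and with edgeR (0.0574).

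Higher at 12 months was the potassium-buffering subunit Kcnj16 (chromosome 11, 110968033 to 111027968), at 37.6 ± 3.13 against 30.4 ± 4.18 RPM. Its log2 fold change was 0.30 (SE 0.061, adjusted p = 0.000235), with 18 of 18 libraries above the 3-month mean of their own time after injection. The beta subunit Kcnab1 (chromosome 3, 65109384 to 65378223) was at 193.5 ± 11.25 against 170.7 ± 9.81 (log2 fold change 0.16, SE 0.031, adjusted p = 6.61e-05), with 17 of 18 above. The silent subunits Kcns3 (log2 fold change 0.19, adjusted p = 0.00467) and Kcnf1 (0.20, adjusted p = 0.00937) were higher, as were Kcnj9 (0.16, adjusted p = 0.00839) and Kcnip4 (0.15, adjusted p = 0.0175). The call of Kcnf1 was lost with the myelin markers as a covariate (adjusted p = 0.0763). With the choroid plexus markers as a covariate 14 genes were called between the cohorts, 11 of them among the 16. Kcnf1, Kcnj9, Kcnip4, Kcnh2 and Kcnj13 lost their calls in that fit, and Kcne2 was called higher in place of lower.

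The 2 choroid plexus genes were lower at 12 months, Kcnj13 by a log2 fold change of -1.31 (SE 0.443, adjusted p = 0.0276) and Kcne2 by -1.34 (SE 0.497, adjusted p = 0.0451). Both calls were lost with edgeR (adjusted p = 0.0845 for Kcnj13 and 0.211 for Kcne2), with DESeq2 (0.0727 and 0.208) and with the myelin markers as a covariate (0.139 and 0.198). All 10 choroid plexus markers were called lower there too, with a median of -1.35. With those markers as a covariate the log2 fold changes were 0.12 for Kcnj13 (adjusted p = 0.474) and 0.28 for Kcne2 (adjusted p = 0.00913). The call of Kcne2 was lost on leaving out any of 21 of the 33 libraries, and that of Kcnj13 without 3-month Ctrl replicates 2 or 3 at 5 mpi or 12-month replicate 4 at 1 mpi (adjusted p-values up to 0.056). Other markers also differed between the cohorts. Of 8 myelin markers 6 were lower at 12 months, of 7 microglia markers 4 were higher (Aif1, Csf1r and P2ry12 among them), and of 7 activity-regulated genes Fos, Egr1 and Npas4 were higher. Their part in the channel genes' values was not tested beyond the covariate fits.

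**Figure D5:**
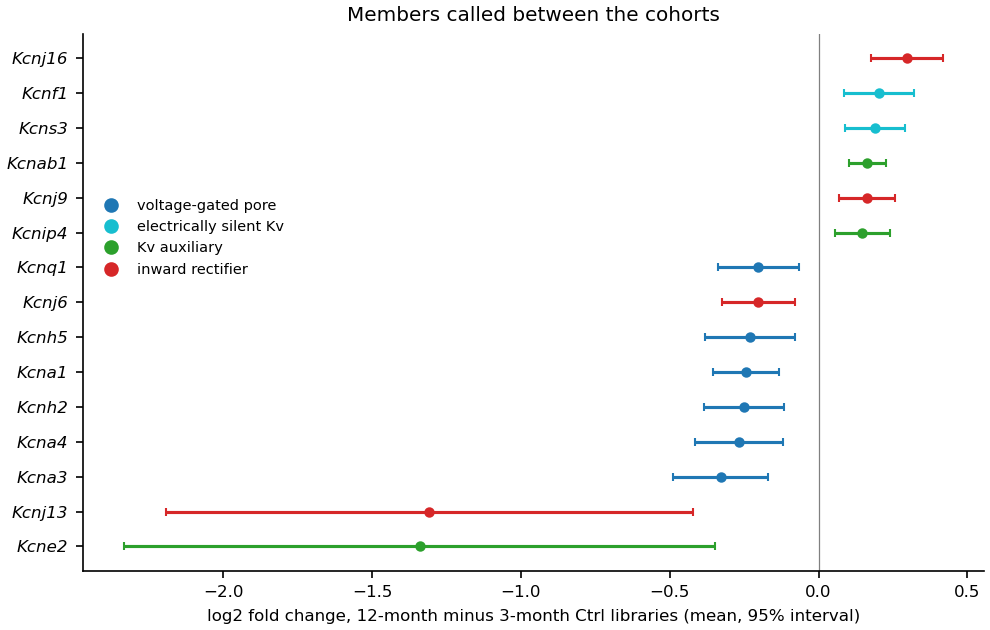
Log2 fold change, 12 minus 3 months, of potassium channel genes called in the Ctrl libraries, with 95% intervals. Kcnj13 and Kcne2 lie near -1.3 with wide intervals, and the others shown lie between -0.33 and 0.30.

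Whether the change from 1 to 5 mpi differed between the cohorts was tested over both extracts. This test was chosen after the data were seen. It called 10 of 85 genes (11.8%), against 8.1% of all genes, 8 with a change that was lower at 12 months and 2 with one that was higher. With the tables used as deposited 11 were called, 1 higher and 10 lower. Kcnj4 had the smallest p, with a log2 difference of -0.44 (SE 0.094, adjusted p = 0.00227). In 12-month Ctrl it was at 49.6 ± 7.88 RPM at 1 mpi (SD, n = 5) and 45.9 ± 3.73 at 5 mpi (n = 7), where 3-month Ctrl had gone from 47.1 to 62.6. Kcnh3 differed by -0.32 (adjusted p = 0.0039). Its 12-month Ctrl means were 59.7 ± 3.21 and 55.1 ± 4.43. The change of Kcnh3 in 12-month AD was higher than that in 12-month Ctrl, a difference that was not called. The test averages both extracts, whereas the 12-month means of Kcnj4, Kcnh3 and Kcnj9 are given here for Ctrl alone. Kcnj9 differed by -0.32 (adjusted p = 0.00997), with 12-month Ctrl means of 108.2 ± 13.1 and 103.4 ± 7.83. Kcnk2 (-0.29, adjusted p = 0.0372), Kcnmb4 (-0.26, adjusted p = 0.0207), Kcns1 (-0.37, adjusted p = 0.0251), Kcng2 (-0.39, adjusted p = 0.0253) and Kcna5 (-0.49, adjusted p = 0.0247) had the same sign. Without 3-month AD replicate 2 at 5 mpi, 6 genes were called. Of the 3-month AD libraries at 5 mpi, Kcnmb4 lost its call without replicate 3 (adjusted p = 0.057), Kcns1 without replicate 1 (0.067), Kcng2 without replicate 2 or 3 (0.062 and 0.055) and Kcna5 without replicate 2 (0.15). Kcnk2 and Kcnj6 lost theirs in 16 and 29 of the 44 fits that each leave out 1 library.

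Kcnk13 and Kcnj6 had the opposite sign, with log2 differences of 0.44 (adjusted p = 0.00819) and 0.33 (adjusted p = 0.0487). Kcnk13 went from 6.18 ± 0.458 to 7.93 ± 1.17 RPM in 12-month Ctrl and from 7.67 ± 0.729 to 7.14 ± 1.04 in 12-month AD. Without the 4 libraries with the highest Inhba, 5 genes were called, Kcnh3, Kcnj4, Kcnmb4, Kcns1 and Kcnk13. In the same test 5 of 8 myelin markers, Cx3cr1, Inhba and Nptx2 were called with a change that was higher at 12 months. With the myelin markers as a covariate 10 channel genes were called, 6 of them called before, and Kcnk13, Kcnk2, Kcnmb4 and Kcns1 lost their calls. With the choroid plexus markers as a covariate 13 were called, 9 of them called before, and Kcnk2 lost its call. Kcnj6 was not called with the tables used as deposited.

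A list of 22 partner genes outside the name rule was examined beside them, 20 of which were tested. It holds the sulfonylurea receptors of ATP-sensitive channels, the Dpp and Lrrc auxiliary subunits, scaffolds of axonal and synaptic channels, and the Hcn pacemaker channels. In the AD against Ctrl comparisons 0 of 20 were called in either cohort, and likewise over time in 3-month AD and in 12-month Ctrl and AD. In 3-month Ctrl between 1 and 5 mpi, where 4.06% of all genes were called lower, 2 of 20 were lower and 0 higher, Ank3, the axon initial segment anchor (log2 fold change -0.17, adjusted p = 0.0406), and Lrrc55, a BK auxiliary subunit (-0.66, adjusted p = 0.0474). At 12 against 3 months 4 of 20 were lower and 0 higher, against 20.7% of all genes called in either direction and 10.7% lower, so the share called was near the background. They were Ank3 (log2 fold change -0.23), the pacemaker channel Hcn4 (-0.38), Abcc9, partner of Kcnj8 (-0.16), and Cntn2, which clusters axonal Kcna channels (-0.14). The change over time in Cntn2 was higher at 12 months by 0.36 (adjusted p = 0.0042).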

How the data were processed

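Per the labels' protocols, RNA was prepared with a Qiagen RNeasy kit, and poly(A) libraries were made with random primers. The submitters' processing notes name STAR, Picard, edgeR and GRCm38. For their versions, the annotation and the counting rule, nothing is given in the sources used here. For each cohort the authors deposited a table of signal by gene: reads-per-million (RPM) over a factor particular to the library (0.957 to 1.042). Whole reads were recovered for 100% of values (tolerance 0.01 reads). No 2 libraries of a group agreed within sampling noise.

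Genes were kept by filterByExpr of edgeR 4.0.16. Log2(value + 1) was fitted with limma 3.58.1 (R 4.3.3), 1 mean per group, all libraries of a cohort sharing 1 spread. Fold changes are on that scale, which understates those of low genes. Between cohorts, reads were scaled together by TMM and log2(CPM + 1) was fitted. Genes were called at a Benjamini-Hochberg adjusted p under 0.05 over all genes tested. Scripts were tested on simulated data.

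Coordinates and exon lengths are from GENCODE vM21 (GRCm38). Named genes are all called ones, otherwise the 5 with the smallest p-values, plus the highest, the most variable and a fixed set of known channels; some are not reported here. The genes, lists and tests were chosen with earlier results of these data known. Alternatives were edgeR and DESeq2 1.42.0 on recovered reads, other scaling, filter, pseudocount (0.1) and samples, marker covariates and each library left out.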

Additional observations from a re-analysis of the deposited data

Results flagged for a closer look

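For 12 potassium channel genes each group of 4 to 10 libraries was examined for a library far from the others by Dixon's ratio, and 6 of 132 groups held one. Chance flags about 1 in 20 groups. Kcnj4 was at 67.1 RPM in 3-month Ctrl replicate 1 at 1 mpi, against 40.5 to 44.1 in the other 4, and at 58.1 in 12-month AD replicate 3 at 5 mpi, against 41.6 to 47.8 in the other 6. The first of these libraries also had the highest Inhba of the 1 mpi group, 95.1. Kcnk2 was at 43.7 in 3-month Ctrl replicate 4 at 5 mpi, against 52.8 to 53.8 in the other 4. Kcnj9 was at 88.4 in 12-month Ctrl replicate 5 at 3 mpi, against 102 to 107 in the other 5, and in the same library Kcnj13 was at 59.0, against 4.63 to 16.2. Kcnab1 was at 208 in 12-month Ctrl replicate 4 at 1 mpi, against 186 to 190 in the other 4.

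The test of the difference itself, chosen after the data were seen, called 10 of 85 genes, 11.8% against 8.1% of all genes. For these the change from 1 to 5 mpi, averaged over both extracts, differed between the cohorts. As the 12-month minus the 3-month log2 fold change, it was -0.44 for Kcnj4, -0.32 for Kcnh3, -0.29 for Kcnk2, -0.32 for Kcnj9, -0.37 for Kcns1, -0.49 for Kcna5, -0.26 for Kcnmb4, -0.39 for Kcng2, 0.44 for Kcnk13 and 0.33 for Kcnj6. The value for Kcna5 lost its call without 3-month AD replicate 2 at 5 mpi (adjusted p = 0.15). Those for Kcnk13, Kcnk2, Kcnmb4 and Kcns1 lost theirs with the myelin markers as a covariate.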

How the results depend on the processing

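Counts of called genes in the AD against Ctrl comparisons, in the differences of AD effect and over time in 12-month Ctrl stayed at 0 under every alternative run, each library left out included. For 3-month Ctrl over time (11) the count was 7 with no filter, 6 with only the compared groups and 5 without the 4 highest-Inhba libraries. Leaving out single libraries gave 4 to 13, with 4 without replicate 5 and 6 without replicate 1 at 5 mpi, and 6 without replicate 1 or 3 at 1 mpi. Kcnk2, Kcnj9, Kcnh3 and Kcnj4 lost their call in none of these 10 fits, Kcnk9 in 8, and Kcnj3 and Kcne4 in 7 each. For 3-month AD over time (9) it was 14 with DESeq2, 5 with no filter, 3 with the choroid plexus covariate, 2 with the myelin covariate, 0 with only the compared groups and 20 without the highest-Inhba libraries. Single libraries gave 2 to 13, with 2 without replicate 1 and 4 without replicate 3 at 5 mpi, and 5 without replicate 4 at 1 mpi. Kcnk13 kept its call in each of those fits. For 12-month AD over time (1) it was 2 with DESeq2, 2 with the choroid plexus covariate, 0 with no filter and 0 with only the compared groups. Single libraries gave 0 to 2, with 0 without replicates 2 or 5 at 1 mpi or 1 or 5 at 5 mpi. For the difference in time change between cohorts (10) it was 16 with DESeq2 and 5 without the highest-Inhba libraries, and single libraries gave 6 to 15, with 6 without 3-month AD replicate 2 at 5 mpi. The call of Kcnj6 there was lost in 29 of 44 such fits. For the cohort comparison (16) single libraries gave 14 to 18. The cause of these changes was not tested, and no share over all genes is given beside these counts. The sign of 4 values turned with the choroid plexus covariate, Kcne2 in AD minus Ctrl at 5 mpi in the 3-month cohort (0.086), Kcne2 over time in 3-month AD (0.19), and Kcnj13 (0.12) and Kcne2 (0.28) in 12 minus 3 months. Replicate numbers were not used as pairs in the main fits. Whether they pair the libraries cannot be decided from the correlations, for which no expectation by chance was computed. Over 31 pairs of same-numbered AD and Ctrl libraries the correlation of their deviations ran from -0.39 to 0.64, and 9 correlated best with their own number. With the replicate block the counts were 12 in 3-month Ctrl, 12 in 3-month AD, 1 in 12-month AD, 15 between cohorts, 11 for the difference in time change and 0 in the AD comparisons. Counting error weighs most on low genes among the called ones, such as Kcnn4, Kcnq1 and Kcna5.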
